A study of Mus musculus with 60 samples.

Results

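GFP-high epithelial cells of the middle part of the mouse small intestine were compared with GFP-high cells of its proximal part. The members are the libraries whose titles name these groups, 4 of each, so 8 of the 60 libraries of the series, and every gene of the count table was considered. All mice carried Lgr5-2A-eGFP and were 8 weeks old, with no treatment named, so both groups share the allele and the age and differ in the gut part from which the cells came. The small intestine had been divided into 3 equal parts, cells had been freed by chelation and TrypLE, at least 50000 cells had been sorted for each GFP fraction, and polyA RNA was sequenced. The labels give neither the number of mice in a library nor whether replicates came from separate animals. The p-values therefore measure a spread between libraries, which may not be that between mice. For the main edgeR calls below, this spread was pooled over all 60 libraries of the series. In this allele, the eGFP sequence follows Lgr5 through a 2A peptide, so GFP follows Lgr5 transcription and the GFP-high gate is a gate on Lgr5 itself.

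Lgr5 encodes a receptor for R-spondins, which strengthen Wnt signalling, and it marks the dividing stem cells at the base of the intestinal crypt. The intestine is patterned along its length: the proximal part neutralises acid and takes up iron, calcium and folate, whereas later parts carry more microbes and, at the end, recover bile acids and cobalamin. Transcription factors such as PDX1 and GATA4 proximally and CDX2 distally set this pattern, and isolated crypts keep much of it in culture.

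Total counts of the 8 libraries ran from 58485489 to 101810833, and 20607 to 23422 genes had at least 1 count. Levels below are CPM, counts scaled to a common library size with TMM factors. Differences are log2 ratios of middle over proximal with their standard errors (SE), and means are given ± SD with n = 4. The epithelial genes Epcam (1423 to 1788 CPM) and Cdh1 (1094 to 1310 CPM) were high in all 8 libraries. Lgr5 was at 280.2 to 474 CPM, against 2.67 ± 0.675 and 2.95 ± 1.38 CPM in GFP-negative cells of the proximal and middle parts. The cells were sorted on its reporter, so this difference between fractions is no separate check of the cells. The leukocyte gene Ptprc reached 10.4 CPM and the stromal gene Col1a1 0.476 CPM. In both groups, replicate 1 carried Xist and almost no Ddx3y, and replicates 2 to 4 the reverse, so this split was balanced between the parts. Proximal replicates 2 and 3 carried transcripts of pancreatic acinar cells, such as Cpa1 at 0.0656, 19.3, 8.81 and 0.0892 CPM in proximal replicates 1 to 4, against 0, 0.0938, 0 and 0 CPM in the middle libraries.

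GFP-high cells of the middle part had more mRNA for the oxidases Duox2 and Nox1, for some alpha-defensins and for the phospholipase Plb1. They had less for the iron exporter Slc40a1, the calcium-binding protein S100g, the carboxylesterase Ces1f and the factor Pdx1. The stem cell genes Lgr5 and Ascl2 and the members of the S phase and mitosis lists were not called with the spread of all libraries. In every gene list described here, more members were not called than were called. Of 23360 genes tested, 464 (1.99%) were called at an adjusted p below 0.05 by edgeR's quasi-likelihood test, 290 higher (1.24%) and 174 lower (0.745%) in the middle part. These shares of all genes are the ones to set beside each list count of this test below. The libraries of the 2 groups did not overlap at 4469 genes (19.1%). When the spread was estimated from these 8 libraries alone, 3480 of 16969 genes (20.5%) were called, 1620 higher (9.55%) and 1860 lower (11%), and they included 448 of the 464. With the replicate number as a block, 585 (2.5%) were called, 370 higher (1.58%) and 215 lower (0.92%). Leaving out 1 library gave 234 to 418 calls. The count moved by more than 1.5 times without middle replicate 1 (254) or 2 (247) and without proximal replicate 1 (234), 2 (283), 3 (268) or 4 (276).

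**Figure D1:**
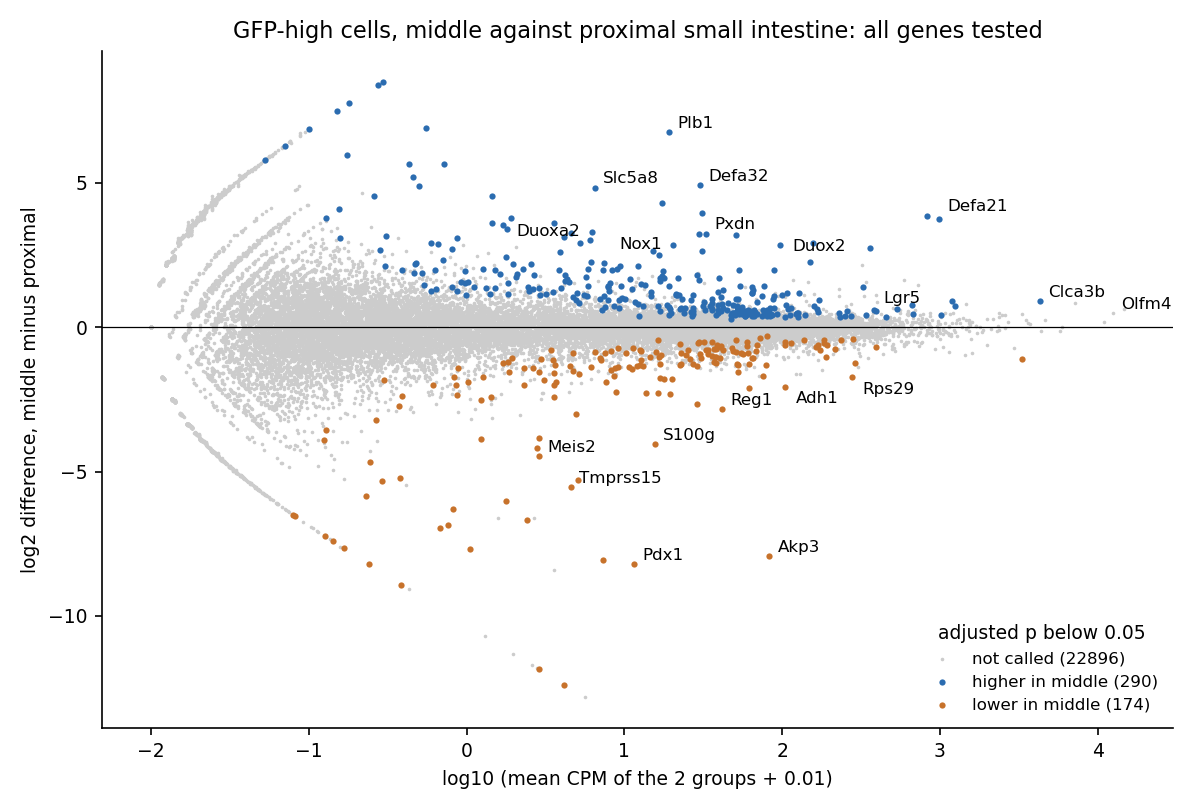
Each point is 1 of the 23360 genes tested, with the log10 of its mean CPM over the 2 groups (plus 0.01) on the x axis and the log2 difference of middle minus proximal on the y axis. The 290 genes called higher in the middle part are blue and the 174 called lower are orange; the curves at the left are genes with no count in 1 group, whose fitted values are not bounds. Pdx1 and Akp3 lie lowest among the labelled genes and Plb1 highest, with Lgr5 and Olfm4 near the zero line.

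The defining stem cell genes were not called between the parts. Both groups were gated on the Lgr5 reporter, so the level of Lgr5 is not independent of the sort. Lgr5 was at 405, 283, 280.2 and 282 CPM in proximal replicates 1 to 4 and at 390.1, 474, 419 and 462 CPM in middle replicates 1 to 4 (log2 difference 0.48 ± 0.26 SE, adjusted p = 0.354). The groups overlap because proximal replicate 1 lies above middle replicate 1. Olfm4, which crypt base cells secrete, was at 10350 ± 559.6 and 14600 ± 579 CPM, with no overlap but no call (0.5 ± 0.71 SE, adjusted p = 0.807). Ascl2, a Wnt-dependent factor of stem cells (0.11 ± 0.32 SE, adjusted p = 0.935), Smoc2, a matrix protein of crypt base cells (0.17 ± 0.13 SE, adjusted p = 0.558), and Mki67, a marker of dividing cells (0.27 ± 0.27 SE, adjusted p = 0.681), overlapped between the groups and were not called. By edgeR, 0 of 25 S phase genes (median 0.05) and 0 of 25 mitosis genes (median 0.25) were called, and by DESeq2 also 0 of each. At an unadjusted p below 0.05, 1 S phase gene was lower and 3 mitosis genes were higher, against 3922 of all 23360 genes in either direction. With the spread of the 8 libraries alone, Lgr5 (adjusted p = 0.0152), Olfm4 (3.37e-04) and 11 of the 25 mitosis genes were called higher, with 0 mitosis genes lower. That fit called 3 of the 25 S phase genes higher and 1 lower, against 9.55% of all genes higher and 11% lower.

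Among 32 crypt base genes, 3 were called, all higher in the middle part (all genes: 1.24% higher, 1.99% in either direction), and the list's median was 0.07, against 0.00 over all genes tested. Tnfrsf19, also called Troy, a receptor of Lgr5-positive cells, was at 30.9, 25.8, 22.7 and 18.5 CPM in the proximal and 60.03, 70.04, 49.3 and 61.9 CPM in the middle replicates 1 to 4. Every middle library lay above every proximal one, a 2.47-fold difference of means (log2 difference 1.3 ± 0.25 SE, adjusted p = 9.83e-04). Pdgfa, a growth factor ligand, was 2.1-fold higher, at 100.2 ± 18.3 against 47.7 ± 5.73 CPM (1.07 ± 0.2 SE, adjusted p = 4.25e-04). Clca3b, a secreted protein related to calcium-activated chloride channel regulators, was called higher (2994 ± 235 and 5614 ± 1001 CPM; 0.91 ± 0.26 SE, adjusted p = 0.0449), but its call ended in 7 of the 8 fits that left out 1 library (highest adjusted p = 0.164 without middle replicate 2). Prox1, a homeobox factor, was the 1 called member of 22 Wnt target genes and also of 23 stromal and endothelial genes. Its levels were 5.103, 4.86, 3.57 and 4.09 CPM in the proximal and 8.51, 13.8, 9.15 and 14.3 CPM in the middle libraries (log2 difference 1.38 ± 0.24 SE, adjusted p = 2.57e-04). Smad6, an inhibitor of BMP signalling, was the 1 called member of 29 Wnt, Notch and BMP genes, and it was 1.83-fold lower (-0.87 ± 0.24 SE, adjusted p = 0.0468). Of the 8 omissions, 7 ended that call (highest adjusted p = 0.199 without middle replicate 1).

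Regional transcription factors changed in both directions: 3 of 33 were called higher and 3 lower. Pdx1, the homeobox factor of the duodenum and pancreas, was at 27.98, 20.2, 24.04 and 19.2 CPM in proximal replicates 1 to 4 and at 0.0284, 0.219, 0 and 0.0757 CPM in middle replicates 1 to 4. All proximal libraries were far above all middle ones, 283-fold between the means (log2 difference -8.21 ± 0.72 SE, adjusted p = 1.42e-11). Proximal replicates 2 and 3, which carried acinar transcripts, lay between the other proximal libraries, and without them the adjusted p of Pdx1 was 5.02e-10. Meis2, a homeobox cofactor, showed the same kind of step, from 4.91, 4.77, 6.95 and 5.19 CPM to 0.539, 0.0938, 0.291 and 0.0568 CPM (log2 difference -4.48 ± 0.85 SE, adjusted p = 9.15e-04).

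Osr2, a zinc finger factor, was 3.25-fold higher in the middle part (60.5 ± 5.02 against 18.6 ± 2.13 CPM; 1.7 ± 0.46 SE, adjusted p = 0.0347). Nr1h4, the bile acid receptor FXR, was 1.56-fold higher (0.64 ± 0.18 SE, adjusted p = 0.0391), and Ppara, the fatty acid receptor, 2.06-fold lower (-1.04 ± 0.28 SE, adjusted p = 0.0324). These calls were less stable: 8, 6 and 7 of the 8 single-library omissions ended them, with adjusted p up to 0.116 (without proximal replicate 1), 0.193 (without middle replicate 1) and 0.164 (without middle replicate 1). DESeq2 did not call Osr2 (adjusted p = 0.158). Gata4, a zinc finger factor of the proximal gut, was at 206, 224, 195 and 196 CPM in the proximal and 89.8, 119, 99.8 and 128 CPM in the middle libraries, without overlap and without a call (log2 difference -0.91 ± 0.4 SE, adjusted p = 0.2301). Onecut2, a factor with a cut domain, was also without overlap, at 189, 167, 179 and 200 CPM against 51.1, 68.5, 48.1 and 74.05 CPM (log2 difference -1.6 ± 0.48 SE, adjusted p = 0.0693; 0.0427 in the fit with a replicate block). With the spread of the 8 libraries alone, both were called lower (adjusted p = 2.48e-04 for Gata4 and 2.34e-05 for Onecut2), and likewise by edgeR's newer quasi-likelihood method (adjusted p = 0.0491 for Gata4 and 1.24e-04 for Onecut2). Gata6, a relative of Gata4 (-0.07 ± 0.12 SE, adjusted p = 0.865), the homeobox factors Cdx1 (-0.36 ± 0.23 SE, adjusted p = 0.446) and Cdx2 (-0.45 ± 0.28 SE, adjusted p = 0.434), and Hnf4a, a nuclear receptor of the gut epithelium (-0.23 ± 0.11 SE, adjusted p = 0.284), were not called. Cdx1, Cdx2 and Hnf4a did not overlap between the parts. The spread of the 8 libraries alone called Cdx1 and Cdx2 lower in the middle part (adjusted p = 0.0138 and 0.01005), but neither Gata6 nor Hnf4a.

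Set beside the distal part, whose 4 GFP-high libraries were at 2.13 ± 0.695 CPM for Onecut2 and 23.6 ± 11.8 CPM for Gata4, these genes were intermediate in the middle part. Pdx1 and Meis2 were at 0.0511 ± 0.0477 and 0.0624 ± 0.0616 CPM in the distal part.

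**Figure D2:**
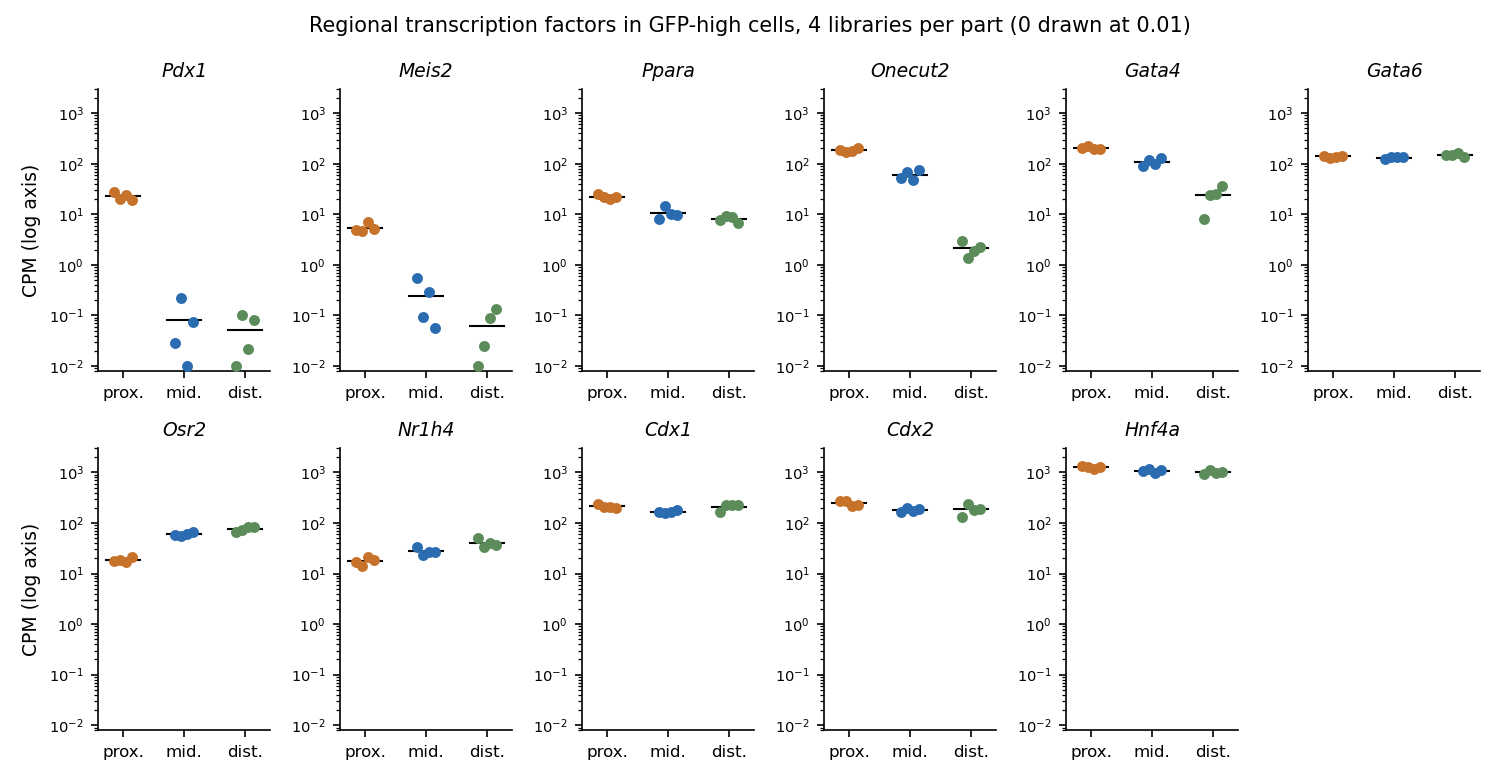
CPM on a log axis for 11 regional transcription factors in GFP-high cells of the proximal (orange), middle (blue) and distal (green) small intestine; each point is 1 library, the line is the mean of 4, and 0 is drawn at 0.01. Pdx1 and Meis2 drop by the middle part, Onecut2 and Gata4 are lower in each successive part, and Osr2 and Nr1h4 are higher in the middle than in the proximal part.

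Hox genes, which order the body axis, were near the limit of detection, and 1 of 30 was called higher and 3 lower. Hoxa9 was at 0.558, 0.3998, 0.783 and 1.26 CPM in the proximal libraries and had no count in any middle library, so it was at least 19.9-fold higher in the proximal part against a floor of 3 counts per library (adjusted p = 2.26e-10). Hoxa10 was at 0.459, 0.514, 0.504 and 0.714 CPM against 0.0567, 0, 0 and 0 CPM (adjusted p = 6.50e-07). Hoxa7 had 350 counts in the 4 proximal and 3 in the 4 middle libraries (adjusted p = 6.16e-06), and Hoxd4 had 1 and 102 (adjusted p = 0.00657), so no ratio is given for either. Genes of the Hoxa cluster overlap each other and antisense transcripts, and the strand setting of the counting is not given in the sources used here, so the assignment of these few reads to single genes is uncertain.

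Most of the called genes of mineral and vitamin uptake were lower in the middle part. S100g, the calcium buffer calbindin-D9k, was at 18.9, 20.8, 38.6 and 38.8 CPM in proximal replicates 1 to 4 and at 1.93, 1.56, 2.35 and 1.22 CPM in middle replicates 1 to 4. The groups were far apart, 16.6-fold between the means (log2 difference -4.05 ± 0.56 SE, adjusted p = 2.22e-06), and the distal libraries, at 1.31 ± 0.215 CPM, were close to the middle ones. Trpv6, the apical calcium channel, was low throughout, at 0.722, 1.23, 2.53 and 1.53 CPM in the proximal part, with 4 counts in all in the middle part, all of them in replicate 4 (adjusted p = 0.00297). These were the 2 called of 9 calcium and vitamin D genes, both lower.

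In the iron list 3 of 20 genes were lower and 1 higher. Epas1, the hypoxia-inducible factor that governs iron uptake genes in enterocytes, was at 28.4, 20.9, 23.4 and 18.6 CPM in the proximal and 4.28, 5.49, 4.83 and 4.12 CPM in the middle libraries (log2 difference -2.29 ± 0.21 SE, adjusted p = 2.74e-11). Slc40a1, the iron exporter ferroportin, was at 36.6, 20.6, 28.6 and 21.9 CPM and 12.9, 3.55, 2.42 and 3.405 CPM (log2 difference -2.27 ± 0.47 SE, adjusted p = 0.002299). Middle replicate 1 was the highest of its group for ferroportin, but still below every proximal library. Cybrd1, the duodenal ferric reductase, had overlapping groups (7.07 ± 2.04 and 5.45 ± 2.56 CPM; -0.38 ± 0.7 SE, adjusted p = 0.868). Bmp6, which acts upstream of hepcidin, was the gene called higher, at 0.469 ± 0.224 CPM against 0.0725 ± 0.0669 CPM (adjusted p = 0.0221). It rested on 162 counts in the middle and 20 in the proximal libraries. Its ratios of middle to proximal within replicate numbers 1 to 4 were 18.2, 1.46, 5.6 and 24.2. Fits with single libraries left out are not given for it. With the replicate block 2 of the 20 iron genes were higher.

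Of 27 folate, cobalamin and retinoid genes, 5 were lower and 2 higher. Adh1, a retinol-oxidising alcohol dehydrogenase, was at 174, 158, 178 and 164 CPM in the proximal libraries and 36.7, 36.9, 53.9 and 33.5 CPM in the middle ones, with tight groups 4.18-fold apart (log2 difference -2.06 ± 0.23 SE, adjusted p = 2.60e-08). Scarb1, a receptor for lipoproteins and carotenoids, was 2.57-fold lower (-1.36 ± 0.29 SE, adjusted p = 0.00332). Slc46a1, the proton-coupled folate transporter, was 2.44-fold lower (-1.29 ± 0.3 SE, adjusted p = 0.0108) and Rdh16, a retinol dehydrogenase, 2.53-fold lower (-1.34 ± 0.3 SE, adjusted p = 0.00658). Slc46a1 was no longer called without middle replicate 2 or proximal replicate 3 (adjusted p up to 0.0963), nor Rdh16 without middle replicate 2 or proximal replicate 1 (up to 0.0665). Cubn, the receptor for intrinsic factor with cobalamin, rose from 17.3, 7.77, 12.7 and 13.6 CPM to 72.05, 34.8, 37.5 and 34.9 CPM, 3.49-fold between the means (log2 difference 1.8 ± 0.49 SE, adjusted p = 0.0329). Its highest library was middle replicate 1, and 6 of the 8 omissions ended the call (adjusted p = 0.186 without middle replicate 1).

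Digestive enzymes of the brush border split by gene, with 3 of 24 higher and 2 lower. Akp3, a duodenal alkaline phosphatase, was at 111, 106, 237 and 208 CPM in proximal replicates 1 to 4 and at 0.652, 0.7501, 1.14 and 0.208 CPM in the middle replicates, 240-fold between the means (log2 difference -7.92 ± 0.87 SE, adjusted p = 2.60e-08). Tmprss15, enteropeptidase, which activates trypsinogen, was at 4.59, 5.797, 12.96 and 12.4 CPM and 0.426, 0, 0.0895 and 0.246 CPM (log2 difference -5.53 ± 1.07 SE, adjusted p = 0.001495). Both were thus close to absent from the middle libraries and were at 0.527 ± 0.759 and 0.0545 ± 0.109 CPM in the distal ones. The opposite held for Plb1, a membrane phospholipase, at 0.459, 0.3998, 0.224 and 0.312 CPM in the proximal and 50.7, 31.7, 28.8 and 39.6 CPM in the middle libraries. Its 108-fold rise (log2 difference 6.76 ± 0.52 SE, adjusted p = 2.15e-13) was the largest among called protein-coding genes whose higher group averaged at least 10 CPM.

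Naaladl1, a membrane peptidase, was 3.91-fold higher (142 ± 18.7 against 36.2 ± 6.16 CPM; 1.97 ± 0.29 SE, adjusted p = 1.01e-05) and Xpnpep2, an aminopeptidase that cleaves before proline, 3.86-fold higher (1.95 ± 0.33 SE, adjusted p = 9.39e-05). Enpp7, the alkaline sphingomyelinase, rose from 3.59, 9.88, 10.1 and 16.6 CPM to 79.03, 95.4, 75.8 and 117 CPM (log2 difference 3.19 ± 0.62 SE, adjusted p = 0.00115), again without overlap. Mgam, maltase-glucoamylase, was 1.88-fold higher (0.91 ± 0.23 SE, adjusted p = 0.0235), though 6 of the 8 omissions ended the call (highest adjusted p = 0.1398 without middle replicate 2). Sis, sucrase-isomaltase, was at 171, 241, 211 and 213 CPM against 490.3, 625, 315 and 356 CPM, without overlap or a call (log2 difference 1.09 ± 0.38 SE, adjusted p = 0.126). Lct, lactase, overlapped (0.36 ± 0.52 SE, adjusted p = 0.804). Slc5a8, a sodium-coupled transporter of short-chain monocarboxylates, was at 0.164, 0.743, 0.588 and 0.238 CPM in the proximal and 12.6, 14.8, 10.4 and 12.4 CPM in the middle libraries, 29-fold apart (log2 difference 4.83 ± 0.52 SE, adjusted p = 6.27e-09). Slc34a2, the intestinal phosphate transporter, was 6.21-fold higher (2.63 ± 0.6 SE, adjusted p = 0.008402) but was not called without proximal replicate 1 or 2 (adjusted p up to 0.0607). By edgeR, 0 of 27 sugar, peptide and amino acid transport genes were called (median 0.15). Of these, 3 were higher and 2 lower at an unadjusted p below 0.05, against 3922 of all 23360 genes in either direction. DESeq2 called 1 higher, and the spread of the 8 libraries alone gave 6 higher and 3 lower, where it called 9.55% and 11% of all genes.

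**Figure D3:**
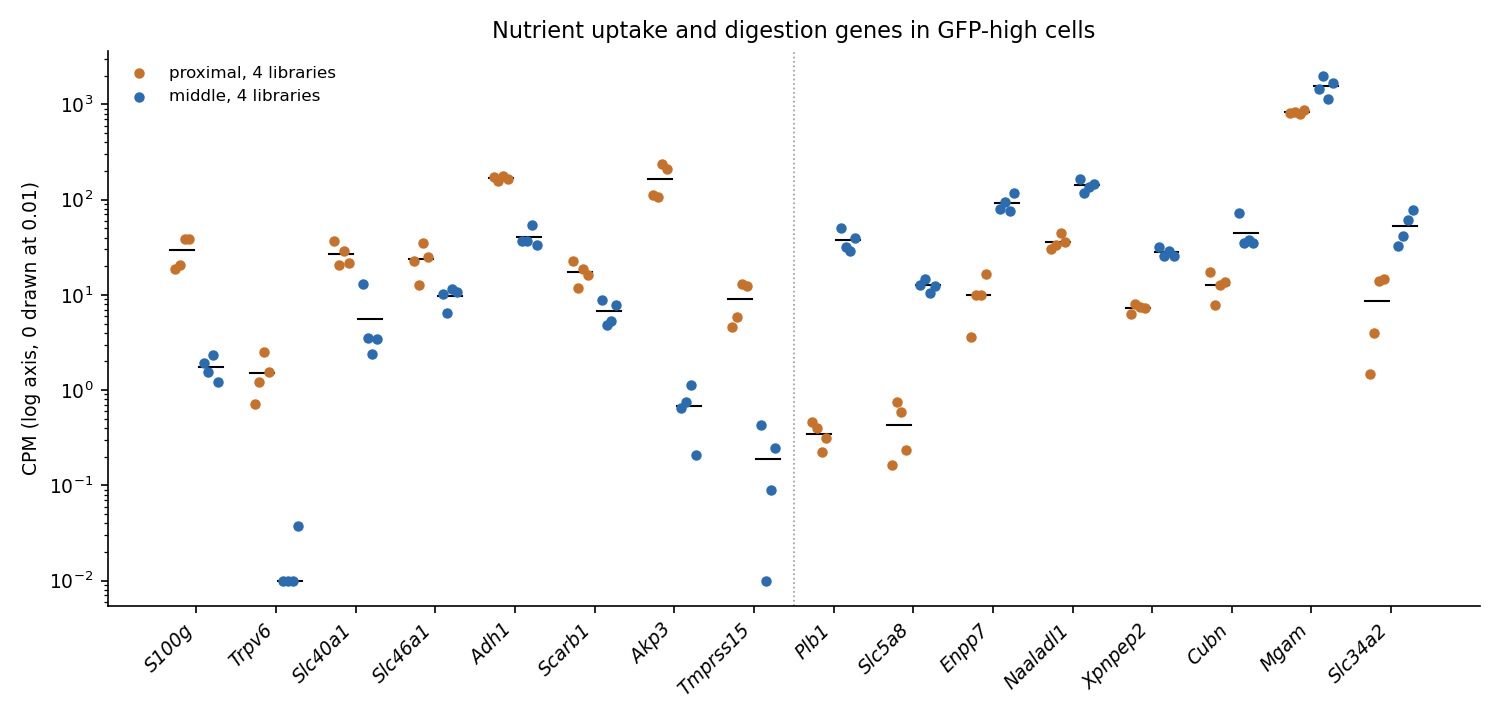
CPM on a log axis of 16 uptake and digestion genes in GFP-high cells; orange points are the 4 proximal libraries, blue points the 4 middle libraries, lines are means and 0 is drawn at 0.01. To the left of the dotted line are genes called lower in the middle part and to the right genes called higher, and in each of the 16 the 4 points of one colour lie above the 4 of the other.

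Genes of mature absorptive cells were detected in all 8 libraries. The summed level of 28 enterocyte genes was 4608 to 6440 CPM in the proximal and 6712 to 7740 CPM in the middle libraries, without overlap (two-sided exact permutation p = 0.0286, the smallest that 4 against 4 allows; 0.114 after Benjamini-Hochberg adjustment over 12 marker lists). In GFP-negative cells Akp3 was at 1155 ± 759.7 CPM in the proximal part and Plb1 at 308 ± 58.5 CPM in the middle part. In bulk libraries, fewer cells of a type and less RNA per cell cannot be told apart, and the part of mature cells in these differences was not tested.

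Fat handling gave few calls. Scarb1 was the 1 called of 28 genes of dietary lipid absorption. Fabp1, the liver-type fatty acid binding protein, was at 131, 128, 347 and 182 CPM in the proximal and 56.5, 48.7, 87.5 and 62.7 CPM in the middle libraries, without overlap or a call (log2 difference -1.62 ± 0.52 SE, adjusted p = 0.0918). It was called lower in the fit with a replicate block (adjusted p = 0.0451), making 2 of 28. Fabp2, the intestinal type, overlapped (0.29 ± 0.28 SE, adjusted p = 0.656). Of 28 genes of fatty acid oxidation and ketogenesis, 27 had a log2 difference below 0 and 3 were called lower (5 with the block), with a median of -0.41. Acadvl, which begins the oxidation of very long chains, was at 109.7, 99.4, 138 and 102 CPM in the proximal and 34.9, 39.1, 57.8 and 49.9 CPM in the middle libraries (log2 difference -1.31 ± 0.3 SE, adjusted p = 0.00959). Bdh1, a ketone body enzyme, was also lower (-0.4 ± 0.11 SE, adjusted p = 0.0419). Leaving out middle replicate 1 or 2 ended the call of Acadvl (adjusted p up to 0.0657), and 6 of the 8 omissions ended that of Bdh1 (up to 0.159, without middle replicate 3).

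Bile acid genes were called in 1 direction with the spread of all libraries, 4 of 15 higher and 0 lower, with a median of 0.5 (all genes: 1.24% higher and 0.745% lower). The spread of the 8 libraries alone gave 6 of 14 higher and 2 lower, where it called 9.55% and 11% of all genes. Abcc4, an efflux pump for conjugated compounds, was at 5.14, 3.94, 4.197 and 5.44 CPM in the proximal and 10.4, 12.99, 8.77 and 12.6 CPM in the middle libraries (log2 difference 1.26 ± 0.22 SE, adjusted p = 1.58e-04). Fgf15, the hormone that ileal cells release in response to bile acids, had no count in any proximal library and was at 0.426, 0.313, 0.202 and 0.426 CPM in the middle ones, at least 7.64-fold higher against the floor of 3 counts per library (adjusted p = 0.00295; 0.185, not called, by edgeR's newer quasi-likelihood method). Abcb1a, the efflux pump P-glycoprotein, was 1.52-fold higher (0.6 ± 0.16 SE, adjusted p = 0.0284), and 6 of the 8 omissions ended the call (highest adjusted p = 0.137 without proximal replicate 1). The ileal uptake genes Slc10a2 (0.354 ± 0.178 and 0.722 ± 0.415 CPM) and Fabp6 (0.421 ± 0.224 and 0.545 ± 0.419 CPM) were low in both parts and not called, and stood at 21.3 ± 10.6 and 71.7 ± 35.1 CPM in the distal part.

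Drug-metabolising enzymes were lower in the middle part in 9 and higher in 2 of 53 genes, with a median of -0.29. Ces1f, a carboxylesterase, was at 18.3, 25.1, 45.5 and 40.6 CPM in the proximal and 6.61, 5.798, 7.36 and 6.05 CPM in the middle libraries (log2 difference -2.33 ± 0.29 SE, adjusted p = 3.89e-07). Ces1e, its neighbour in the same family, was 2.42-fold lower (-1.27 ± 0.23 SE, adjusted p = 4.81e-04), the glutathione transferase Gstm6 2.04-fold lower (-1.02 ± 0.17 SE, adjusted p = 8.19e-05) and the glucuronosyltransferase Ugt2b5 3.71-fold lower (-1.9 ± 0.3 SE, adjusted p = 2.73e-05). These families hold close copies, and how reads shared between copies were counted is not given in the sources used here. Papss2, which makes the sulphate donor of sulphation, was at 75.9, 93.7, 119 and 113 CPM and 28.7, 20.9, 17.5 and 24.8 CPM (log2 difference -2.12 ± 0.32 SE, adjusted p = 1.54e-05). Akr1c19, an aldo-keto reductase, was 3.35-fold lower (-1.75 ± 0.2 SE, adjusted p = 5.03e-08), Fras1, a matrix protein, 3.47-fold lower (-1.79 ± 0.4 SE, adjusted p = 0.00597) and Reg1, a secreted lectin, 7.12-fold lower (-2.83 ± 0.6 SE, adjusted p = 0.00326).

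Alpha-defensins, the antimicrobial peptides of Paneth cells, were called higher for 8 of 27 genes and lower for 0, with a median of 0.91. Defa21 was at 150.5, 171, 134 and 92.2 CPM in proximal replicates 1 to 4 and at 3515, 1482, 1782 and 561 CPM in middle replicates 1 to 4. Even the lowest middle library, replicate 4, was above every proximal one (log2 difference 3.74 ± 0.55 SE, adjusted p = 1.01e-05). Defa22 was 14.4-fold higher (3.85 ± 0.54 SE, adjusted p = 4.64e-06). Defa32 rose from 0.902, 2.33, 1.903 and 2.56 CPM to 121, 30.8, 45.4 and 36.6 CPM (log2 difference 4.92 ± 0.6 SE, adjusted p = 8.82e-07). Defa20 rose from 26.6, 30.2, 31.1 and 58.04 CPM to 565, 172, 246 and 122 CPM (log2 difference 2.92 ± 0.51 SE, adjusted p = 4.17e-04). The summed level of the 27 genes overlapped: it was 5586 to 12230 CPM in the proximal and 4272 to 23150 CPM in the middle libraries (exact permutation p = 0.686). Defa24, another member, was at 4362, 4476, 3827 and 2025 CPM in the proximal and 3877, 1771, 2324 and 916 CPM in the middle libraries, where the middle group reached lower.

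The transcripts of Defa21 and Defa22 are 99.5% identical over 418 aligned bases in GENCODE vM21, and those of Defa20 and Defa32 99.8% over 425. Those of Defa2 and Defa33, also called higher, are 99.5% to 99.8% identical to each other and to Defa20 and Defa32. Defa34 and Defa35, also called higher, are 98.1% identical over 370. Reads can thus be split between copies, so single-gene values are uncertain and the 8 calls need not be 8 separate signals. Other Paneth genes gave 2 higher of 23. Lyz1, the Paneth cell lysozyme, was at 4838, 6502, 5347 and 3770 CPM in the proximal and 13840, 9089, 10620 and 3040 CPM in the middle libraries and was not called (log2 difference 0.84 ± 0.41 SE, adjusted p = 0.2901). Middle replicate 4 was the lowest of the 8 and middle replicate 1 the highest. Nupr1, a stress-induced chromatin protein, was called although middle replicate 4 lay below proximal replicate 2 (1.61 ± 0.33 SE, adjusted p = 0.001798). Guca2b, the peptide uroguanylin, also had overlapping groups (0.86 ± 0.24 SE, adjusted p = 0.0471). It was not called with the replicate block (adjusted p = 0.0505) or after 6 of the 8 omissions (highest adjusted p = 0.276 without middle replicate 1). Paneth cells sit between the stem cells at the crypt base. The 25 other Paneth genes summed to 6924 to 11580 and 5934 to 24250 CPM, and their part in the defensin values was not tested.

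Of 42 genes that face microbes, 8 rose in the middle part, against 1 lower, with 33 of the 42 above 0 and a median of 0.47. Oxidant-producing enzymes were among them. Nox1, a superoxide-producing NADPH oxidase of the gut epithelium, was at 2.17, 6.97, 0.532 and 10.4 CPM in proximal replicates 1 to 4 and at 21.5, 42.9, 18.03 and 60.9 CPM in middle replicates 1 to 4. Replicate 4 was the highest and replicate 3 the lowest in both parts, and the ratio of middle to proximal within a replicate number was 9.93, 6.15, 33.9 and 5.85 (log2 difference 2.84 ± 0.55 SE, adjusted p = 0.00106). Duox2, the dual oxidase that releases hydrogen peroxide, was at 15.3, 20.5, 16.7 and 41.3 CPM and 141, 177, 91.1 and 273 CPM (log2 difference 2.86 ± 0.33 SE, adjusted p = 3.22e-08). Duoxa2, its maturation factor, was at 1.05, 0.885, 0.8395 and 1.77 CPM and 10.7, 9.001, 5.33 and 20.0 CPM (log2 difference 3.31 ± 0.47 SE, adjusted p = 4.61e-06). In both genes replicate 4 was again the highest library of each part, and no proximal library reached any middle one.

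Nos2, inducible nitric oxide synthase, rose from 1.38, 3.68, 0.8395 and 9.22 CPM to 35.2, 47.98, 28.5 and 120.5 CPM (log2 difference 3.94 ± 0.91 SE, adjusted p = 0.00907), but without proximal replicate 1 or 3 it was not called (adjusted p up to 0.0608). Pxdn, peroxidasin, a peroxidase of the matrix, was at 2.36, 8.47, 3.36 and 10.96 CPM in the proximal and 46.1, 65.6, 35.6 and 91.1 CPM in the middle libraries (log2 difference 3.24 ± 0.53 SE, adjusted p = 5.79e-05). Fut2, which adds the fucose that microbes use, was 8.67-fold higher (3.11 ± 0.62 SE, adjusted p = 0.00148), and Tlr2, a receptor for bacterial lipoproteins, 2.72-fold higher (1.44 ± 0.33 SE, adjusted p = 0.00754). For Fut2, the ratios within replicate numbers were 9.83, 46.6, 1.67 and 7.63, smallest in replicate 3. Reg3g, a bactericidal lectin, was at 51.3, 113, 105 and 108 CPM and 684, 961, 300 and 575 CPM (log2 difference 2.73 ± 0.66 SE, adjusted p = 0.0127). It was not called without middle replicate 2 or proximal replicate 1 (adjusted p up to 0.079). Its relative Reg3b did not overlap either but was not called (2.14 ± 0.82 SE, adjusted p = 0.173). Cd177, a surface glycoprotein, was 9.31-fold higher (3.22 ± 0.42 SE, adjusted p = 6.50e-07) and Ceacam10, of the carcinoembryonic antigen family, 19.6-fold higher (4.29 ± 0.64 SE, adjusted p = 1.03e-05). Of 33 leukocyte genes, 0 were called by edgeR or DESeq2. At an unadjusted p below 0.05, 7 of them were lower, where 3922 of all 23360 genes passed in either direction. The summed level of the leukocyte genes was 41 to 62.5 CPM in the proximal and 30.4 to 61.95 CPM in the middle libraries. The 41 genes of MHC class II and interferon responses gave 0 calls by edgeR and a median of 0.06. Of them, 6 were higher and 3 lower at an unadjusted p below 0.05, and DESeq2 and the replicate block each called 1 higher.

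**Figure D4:**
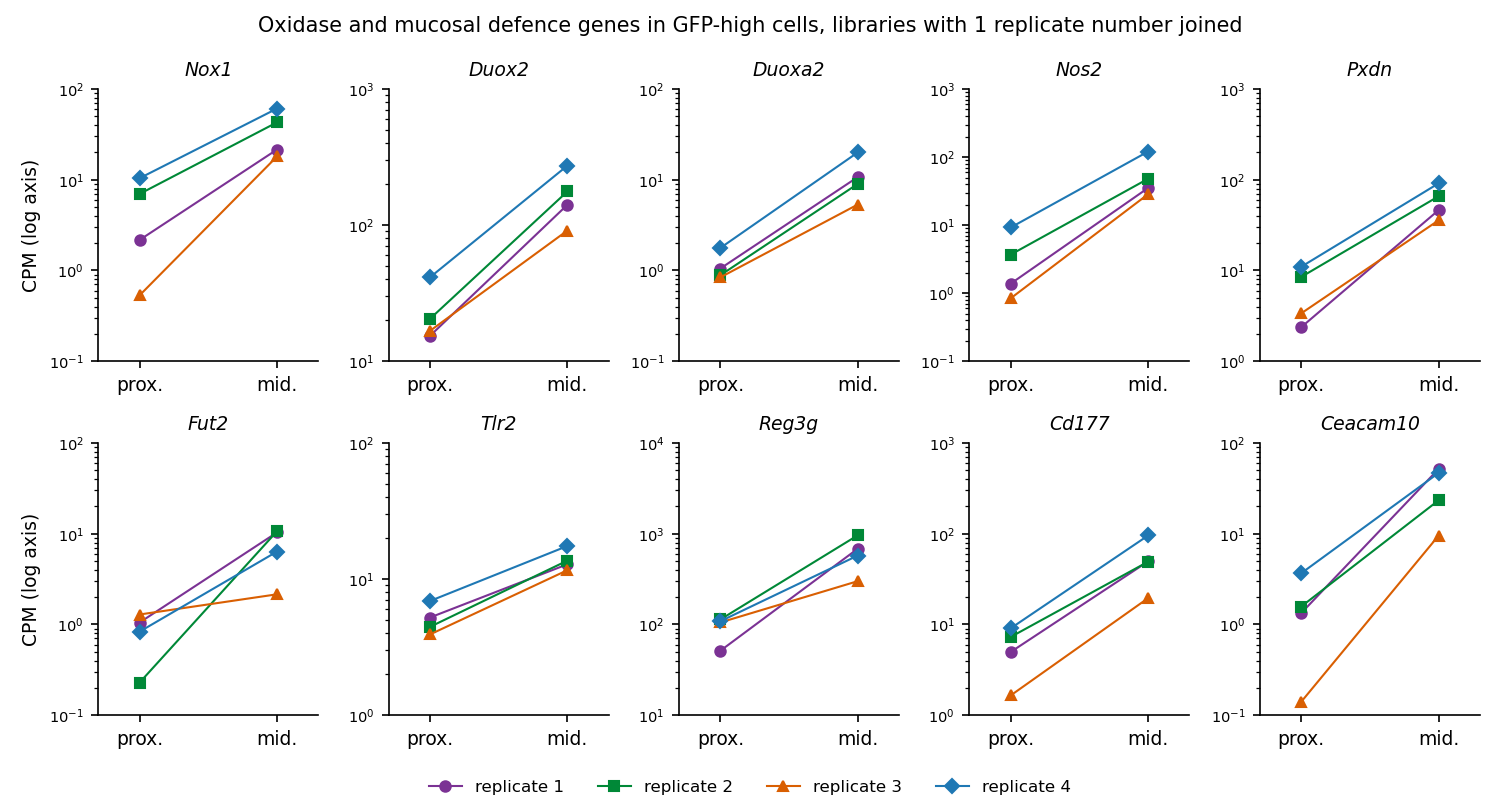
CPM on log axes of 10 oxidase and defence genes in proximal and middle GFP-high cells, with the libraries of 1 replicate number joined by a line; each axis spans whole decades chosen per gene. All 40 lines rise from the proximal to the middle part, and for Nox1, Duox2, Nos2 and Pxdn replicate 4 (blue) is the highest and for Nox1 and Nos2 replicate 3 (orange) the lowest line at both ends.

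Duox2 and Duoxa2 rose together and lie head to head on mouse chromosome 2, with RefSeq start sites 673 bases apart in GRCm38.p6, so the 250 bases before each start are shown for both genes. Nox1 is shown as the other oxidase called, and Adh1, a retinol-oxidising enzyme, and S100g, a calcium-binding protein, as genes called lower. Capitals mark matches to the motif of GATA factors, searched as the 6 letters AGATAA on both strands, or to that of CDX factors, searched as the 7 letters TTTATNG on both strands. The motifs share a run of 4 letters, and none of the 5 windows held both. The windows are chrX:134111855-134112104 on the minus strand, chr2:122298228-122298477 on the minus strand, chr2:122298650-122298899 on the plus strand, chr3:138277335-138277584 on the plus strand and chrX:162964600-162964849 on the minus strand, each printed 5′ to 3′ along its gene.
Nox1: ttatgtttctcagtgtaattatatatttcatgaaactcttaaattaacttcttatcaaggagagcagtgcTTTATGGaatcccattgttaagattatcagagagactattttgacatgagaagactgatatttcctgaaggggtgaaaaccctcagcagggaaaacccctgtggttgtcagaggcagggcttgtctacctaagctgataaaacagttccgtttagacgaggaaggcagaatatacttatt
Duox2: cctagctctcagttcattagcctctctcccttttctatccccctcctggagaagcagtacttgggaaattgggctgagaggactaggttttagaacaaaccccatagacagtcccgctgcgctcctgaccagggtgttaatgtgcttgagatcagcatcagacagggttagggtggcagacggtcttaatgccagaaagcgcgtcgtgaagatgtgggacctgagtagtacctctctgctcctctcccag
Duoxa2: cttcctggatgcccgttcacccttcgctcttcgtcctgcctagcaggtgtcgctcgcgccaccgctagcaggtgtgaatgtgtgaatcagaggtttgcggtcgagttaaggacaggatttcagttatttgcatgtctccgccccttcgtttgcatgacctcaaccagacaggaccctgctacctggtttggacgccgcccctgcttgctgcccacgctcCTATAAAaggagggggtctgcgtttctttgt
Adh1: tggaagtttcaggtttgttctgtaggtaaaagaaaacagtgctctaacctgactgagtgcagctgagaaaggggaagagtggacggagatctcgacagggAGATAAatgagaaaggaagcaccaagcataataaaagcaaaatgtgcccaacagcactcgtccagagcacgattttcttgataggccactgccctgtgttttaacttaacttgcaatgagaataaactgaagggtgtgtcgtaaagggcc
S100g: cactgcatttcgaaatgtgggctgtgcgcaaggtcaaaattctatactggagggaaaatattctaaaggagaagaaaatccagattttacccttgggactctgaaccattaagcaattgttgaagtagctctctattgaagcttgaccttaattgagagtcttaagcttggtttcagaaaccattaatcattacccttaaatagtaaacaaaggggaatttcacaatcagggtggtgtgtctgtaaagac
The window of Nox1 holds 1 match to the CDX letters and that of Duoxa2 1, on the other strand. That of Adh1 holds 1 match to the GATA letters and those of Duox2 and S100g none of either. Among 27025 RefSeq windows of the same length, 10.3% hold the GATA letters and 10.2% the CDX letters. For promoters of genes tested here (14208) the shares were 6.95% and 7.3%. They were 15.2% and 9.85% for the 132 genes called lower with a window and 8.37% and 11.3% for the 203 called higher. A match describes letters only and is not shown to be a binding site.

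Of 30 tuft cell genes, 4 were called lower and 1 higher, 27 were below 0, and the median was -0.82. The 2 groups did not overlap at 14 lower and 2 higher genes, against 19.1% of all genes. Trpm5, the cation channel of taste signalling, was at 129, 58.4, 88.1 and 71.1 CPM in the proximal and 33.4, 39.2, 56.9 and 35.4 CPM in the middle libraries (log2 difference -1.07 ± 0.27 SE, adjusted p = 0.0191), with proximal replicate 1 the highest. Avil, an actin-binding protein (-1.04 ± 0.28 SE, adjusted p = 0.0347), Ptgs1, a prostaglandin synthase (-1.13 ± 0.32 SE, adjusted p = 0.0456), and Ly6g6f, a surface protein (-2.0 ± 0.53 SE, adjusted p = 0.0297), were the other 3. These 4 calls ended in 4, 6, 6 and 7 of the 8 omissions, with adjusted p up to 0.166, 0.206, 0.211 (each without proximal replicate 1) and 0.151 (without middle replicate 1). Gnat3, the G protein gustducin, went the other way, from 0.476, 0.3998, 0.4197 and 0.282 CPM to 1.305, 2.03, 1.94 and 0.832 CPM (log2 difference 1.95 ± 0.52 SE, adjusted p = 0.0294), and 7 omissions ended its call (adjusted p up to 0.108 without proximal replicate 4). The summed level of the tuft genes was 897 to 1273 CPM in the proximal and 762 to 951 CPM in the middle libraries (exact permutation p = 0.0571; adjusted 0.171). In GFP-negative cells edgeR called 0 of the 30, with a median of 0.09, and DESeq2 called 1 higher. There, 1 was higher at an unadjusted p below 0.05, against 3031 of all 23360 genes in either direction.

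Hormone genes of enteroendocrine cells gave 2 of 30 higher and 0 lower. Nts, neurotensin, was at 0, 0.828, 0 and 0.178 CPM in the proximal and 4.88, 2.94, 2.597 and 3.73 CPM in the middle libraries (log2 difference 3.78 ± 0.84 SE, adjusted p = 0.00669). Pyy, peptide YY, was at 0.131, 0, 0.05596 and 0.0595 CPM and 0.454, 0.25, 0.246 and 1.19 CPM (log2 difference 3.16 ± 0.77 SE, adjusted p = 0.0138). It was not called after 4 of the 8 omissions (adjusted p up to 0.113 without middle replicate 4) or by edgeR's newer method (0.158). Both are hormones of the later small intestine. Chga, a granin shared by endocrine cells, was at 28.4, 39.5, 22.4 and 21.3 and 11.8, 24.2, 13.6 and 19.99 CPM, with overlap. Goblet cell genes gave 0 higher and 1 lower of 23. The gene called was St3gal6, a sialyltransferase, at 65.8 ± 8.74 CPM in the proximal and 36.2 ± 4.304 CPM in the middle libraries (-0.86 ± 0.14 SE, adjusted p = 7.01e-05). It belongs to the 39 glycan transferases too, of which 2 were higher and 2 lower. B3gnt5, which starts lacto-series glycolipids, rose from 2.11 ± 0.571 to 4.94 ± 1.13 CPM (1.22 ± 0.26 SE, adjusted p = 0.0027). St6galnac6, a sialyltransferase, fell from 4.805 ± 2.298 to 1.34 ± 0.324 CPM (-1.83 ± 0.42 SE, adjusted p = 0.00812; adjusted p = 0.0948 without proximal replicate 1).

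Ion and water transport gave 3 higher and 2 lower of 38 genes. Car8, a protein of the carbonic anhydrase family, was at 37.8, 41.4, 31.2 and 29.2 CPM in the proximal and 72.97, 77.8, 68.8 and 57.6 CPM in the middle libraries (log2 difference 0.99 ± 0.23 SE, adjusted p = 0.00777). Slc13a1, the sodium sulphate transporter, was 3.71-fold lower (-1.9 ± 0.48 SE, adjusted p = 0.0199), with 4 of 8 omissions ending the call (adjusted p up to 0.0765 without middle replicate 3). Clca4a, a chloride channel regulator, was at 8.38, 8.12, 55.5 and 14.3 CPM and 78.5, 57.8, 134 and 69.96 CPM, where proximal replicate 3 lay just below middle replicate 2 (log2 difference 1.98 ± 0.53 SE, adjusted p = 0.0326). Its call ended in 5 omissions (adjusted p up to 0.159 without proximal replicate 1). Of 24 claudin and junction genes and 24 cholesterol synthesis genes, edgeR and DESeq2 called 0 in each list. At an unadjusted p below 0.05, 4 and 1 were higher and 1 and 3 lower, against 3922 of all 23360 genes in either direction.

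Of 34 subunits of oxidative phosphorylation, 30 were below 0 and 4 were called, all lower (median -0.21). The spread of the 8 libraries alone gave 16 lower and 0 higher, where it called 11% of all genes lower. Atp5o, of the ATP synthase stalk, was at 35.7, 40.2, 41.8 and 39.97 CPM in the proximal and 20.7, 17.5, 20.8 and 23.8 CPM in the middle libraries (log2 difference -0.93 ± 0.23 SE, adjusted p = 0.0201). The other 3 were Ndufa1 of complex I (-1.3 ± 0.35 SE, adjusted p = 0.0347), Sdhd of complex II (-0.75 ± 0.2 SE, adjusted p = 0.0316) and the Rieske protein Uqcrfs1 of complex III (-0.77 ± 0.2 SE, adjusted p = 0.0215). Rps29, a ribosomal protein, was at 399, 450.5, 423 and 444 CPM and 96.02, 109.9, 125 and 182 CPM (log2 difference -1.74 ± 0.45 SE, adjusted p = 0.0238). Atp5k, of the ATP synthase membrane part, was at 42.3, 46.8, 54.6 and 55.1 CPM and 3.84, 4.16, 4.75 and 18.7 CPM (log2 difference -2.65 ± 0.73 SE, adjusted p = 0.0409). Middle replicate 4 was the closest to the proximal libraries for Rps29 and Atp5k. None of these calls withstood every omission: 6, 7, 8, 4, 7 and 7 of the 8 ended them, with adjusted p up to 0.0991, 0.13, 0.129, 0.09898, 0.114 and 0.173, each without middle replicate 1 or 2.

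The length listed for each gene beside the counts moved with these differences. It need not be the length of the transcript expressed here. Among protein-coding genes at 10 CPM or more, the median log2 difference was -0.32 for the 77 genes of up to 750 bases and -0.19 for the 409 of 750 to 1500 bases. It was -0.04 for the 3232 genes of 1500 to 4000 bases, 0.03 for the 3757 of 4000 to 8000 bases and 0.08 for the 1901 longer ones. In GFP-negative cells the medians of these bins were -0.19, -0.15, -0.07, 0.02 and 0.11. Rps29 is listed at 693 bases, in the shortest bin. The oxidative phosphorylation genes have a median of 2127 bases against 4740 for protein-coding genes at this level, and their median difference of -0.21 lies below the -0.04 of the bin that holds this length. The part of length in the lower values of these genes was not tested.

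The same regional comparison in GFP-negative cells, which uses 8 other libraries with the same replicate numbers, called 521 of 23360 genes (2.23%), 274 higher (1.17%) and 247 lower (1.06%). The balance of directions turned with the method: edgeR's newer quasi-likelihood method called 284 higher and 370 lower, and the spread of these 8 libraries alone 58 higher and 90 lower. Of the 464 genes called in GFP-high cells, 161 were called there too (34.7% of the GFP-high calls and 30.9% of the GFP-negative calls), 86 higher in both and 72 lower in both. In all, 390 of the 464 had the same sign in GFP-negative cells. The share of all genes tested with the same sign is not given here, so this count has no baseline. Among the 390 were Pdx1 (-6.46 ± 0.64 SE, adjusted p = 1.78e-10), Plb1 (8.28 ± 0.53 SE, adjusted p = 1.03e-16), Duox2 (3.68 ± 0.34 SE, adjusted p = 2.92e-11) and Adh1 (-2.22 ± 0.24 SE, adjusted p = 1.22e-09). Pdgfa (0.18 ± 0.2 SE, adjusted p = 0.786), Car8 (0.01 ± 0.23 SE, adjusted p = 1) and Trpm5 (0.15 ± 0.27 SE, adjusted p = 0.901) were not called in GFP-negative cells, but the difference between fractions was not called for these 3 (adjusted p = 0.225, 0.2497 and 0.219).

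The difference between fractions was itself called for 23 of 23360 genes (0.0985%), 17 with the larger value in GFP-high cells (0.0728%) and 6 with the smaller (0.0257%). Of the 23, 10 were among the 464. Named after their values were seen, 3 genes were called in opposite directions: Slc27a2, a fatty acid transporter and acyl-CoA synthetase, Pimreg, a mitotic regulator, and the predicted gene Gm5485. Slc27a2 was at 117, 115, 125 and 124 CPM in proximal and 196, 199, 192 and 208 CPM in middle GFP-high libraries (log2 difference 0.72 ± 0.17 SE, adjusted p = 0.0109). In GFP-negative cells it was at 201 ± 18.5 and 112 ± 38.3 CPM (-0.84 ± 0.17 SE, adjusted p = 0.00117; difference between fractions 1.57 ± 0.24 SE, adjusted p = 2.85e-04). It was thus 1.65-fold higher in the middle part in the GFP-high cells and lower there in the GFP-negative cells. Pimreg was at 1.02, 0.5997, 1.203 and 0.818 CPM and 4.21, 2.39, 2.73 and 3.61 CPM in GFP-high cells and at 1.301 ± 0.671 and 0.448 ± 0.361 CPM in GFP-negative cells (difference 3.36 ± 0.54 SE, adjusted p = 4.17e-04). Ffar4, a receptor for long-chain fatty acids, rose in GFP-high cells from 1.195 ± 0.342 to 4.15 ± 0.8288 CPM, while the GFP-negative groups were at 5.801 ± 1.37 and 6.08 ± 0.898 CPM (difference 1.73 ± 0.36 SE, adjusted p = 0.0276). Map2, a microtubule protein, fell from 2.77 ± 0.766 to 0.941 ± 0.378 CPM in GFP-high cells and was at 1.26 ± 0.382 and 1.82 ± 0.704 CPM in GFP-negative cells (difference -2.08 ± 0.46 SE, adjusted p = 0.04197). With the replicate number as a block 38 genes were called for this difference. Leaving out 1 library gave 9 (without proximal GFP-high replicate 1 or middle GFP-negative replicate 2) to 76 (without proximal GFP-negative replicate 2). The spread of the libraries compared alone gave 4.

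**Figure D5:**
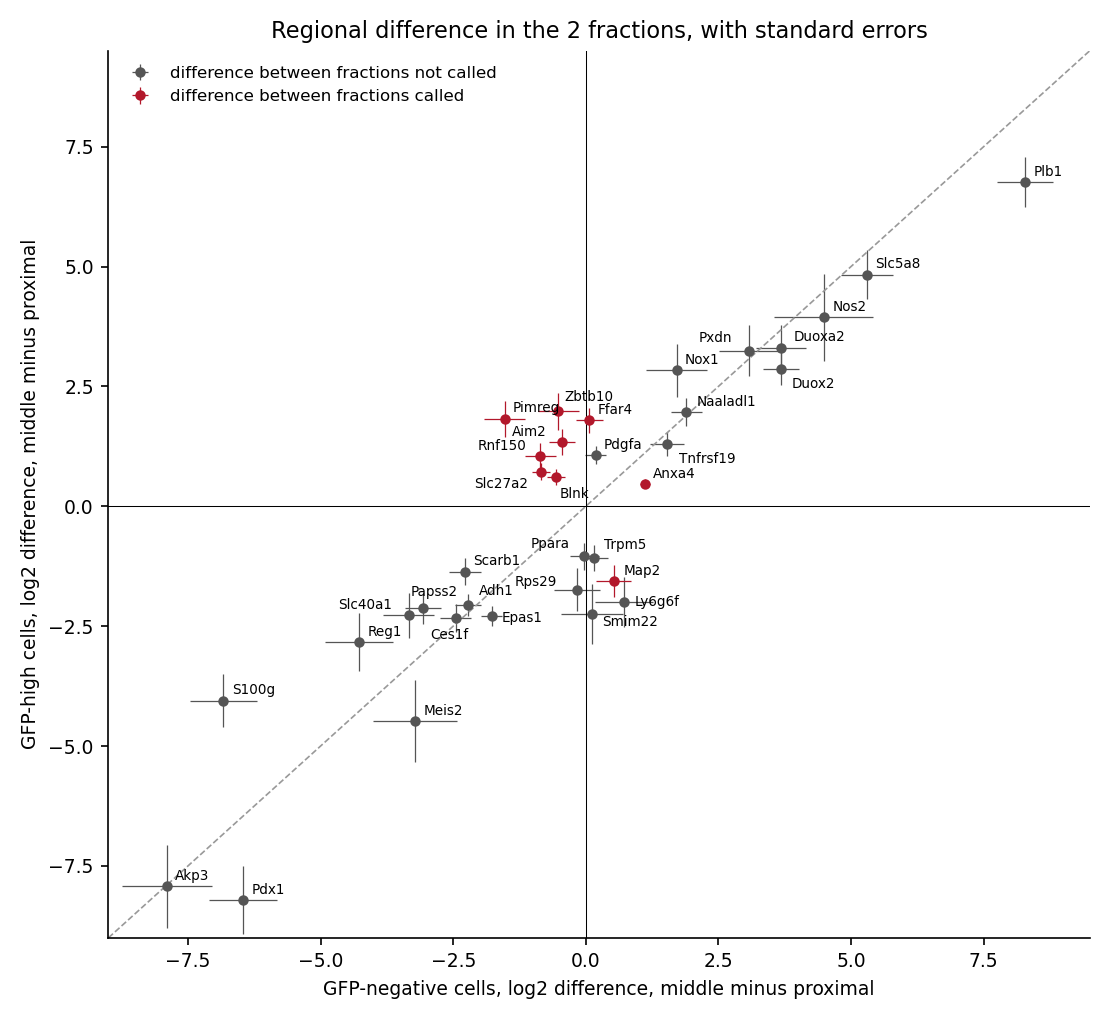
Log2 difference of middle minus proximal in GFP-negative cells (x axis) and GFP-high cells (y axis) for 35 named genes, with standard errors as bars and the line of equal values dashed; red marks genes whose difference between the fractions was called. Pdx1, Akp3, Plb1, Slc5a8 and Duox2 have the same sign in both fractions, Slc27a2 and Pimreg have opposite signs, and Anxa4 rises in both fractions but more in GFP-negative cells.

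Markers of other cells gave these levels. The stromal and endothelial genes, which include Prox1, summed to 18.98 to 22.26 CPM in the proximal and 24.44 to 30.48 CPM in the middle libraries (exact permutation p = 0.0286; adjusted 0.114). Acinar genes were called lower in the middle part for 3 of 22: Cela2a was at 0.328, 21, 11.8 and 0.178 CPM in proximal replicates 1 to 4 with no count in the middle libraries, and Ctrb1 at 0.295, 41.3, 16.8 and 0.0892 CPM against 0, 0.0313, 0.0448 and 0.114 CPM. Without proximal replicates 2 and 3, Cela2a, Ctrb1 and Prss2, the third gene, were not called (adjusted p = 0.541, 0.889 and 0.714). Without those 2 libraries 147 genes were called in all, 145 of them among the 464. Of the 105 called genes followed by name under every setting, 48 were called then and 57 were not. Pdx1, Plb1, Adh1, S100g, Duox2 and Defa21 were called (adjusted p = 5.02e-10, 2.14e-08, 3.90e-06, 4.82e-05, 1.84e-04 and 0.00296), whereas Nox1, Fut2 and Enpp7 were not (adjusted p = 0.0539, 0.0765 and 0.0694). The gastric and Brunner gland genes summed to 57.3 to 102 CPM in the proximal and 30.8 to 47.5 CPM in the middle libraries (exact permutation p = 0.0286; adjusted 0.114), with Muc5ac at 0 in all 8 and Muc6, Tff2 and Atp4b at no more than 0.4197 CPM. Of 25 genes of dissociation stress, edgeR called 0 and DESeq2 1, higher in the middle part. At an unadjusted p below 0.05, 2 were higher and 1 lower, against 3922 of all 23360 genes in either direction.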

How the data were processed

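Polyadenylated RNA of sorted gut epithelial cells was sequenced in 60 libraries, from 5 gut parts and 3 GFP fractions with 4 replicates each. The deposited table holds whole-number read counts per gene for 55357 genes, made by the authors; the submitters' processing notes name STAR, Subread, featureCounts, edgeR and mm10. The strand setting and the treatment of reads shared between genes are not given in the sources used here. A batch column beside the counts equals the replicate number in 60 of 60 libraries.

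Libraries were grouped by their titles. The counts were fitted with edgeR 4.0.16 (R 4.3.3, limma 3.58.1): filterByExpr by group kept 23360 genes with 99.97% to 99.99% of the counts, TMM factors of the 8 libraries were 0.993 to 1.047, and a quasi-likelihood model with 1 mean per group (45 residual degrees of freedom) was tested in both directions with Benjamini-Hochberg adjustment, called below 0.05. The standard error is the log2 difference over the square root of F. The members and gene lists were chosen with earlier results of these data known. Genes named are, per direction, up to 15 called protein-coding genes with the largest differences, at 10 CPM or more and without overlap, up to 4 called members of each of 39 lists, every called regional factor and Hox gene, and a set of genes always followed; a selection is printed, and exceptions are stated. A ratio against a group with no counts uses 3 counts per library.

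Same-numbered libraries deviated together from their group means (correlations of 0.353 to 0.538 in 4 pairs, over 8000 genes). The mean of -0.154 in the other 12 pairs largely follows from taking each group's mean away and is no separate evidence. The replicate number was therefore treated as a possible pairing, although the labels name no shared animal. The main fit did not use it. Alternatives were the replicate block, DESeq2 1.42.0, its size factors, no filter on low counts, edgeR's newer quasi-likelihood method, a minimum fold of 2, each library left out and a fit of the compared groups alone. Proximal replicates 2 and 3 left out together, and the compared groups alone with the block, were added after the data were seen. Marker sums were compared by exact permutation (scipy 1.17.1). Counts were also simulated for this comparison over 22686 genes, with the spread pooled over all libraries. Of these, 24% of 75 genes changed 1.5-fold, 62.7% of 59 changed 2-fold and 97% of 66 changed 4-fold were recovered. Of 22486 unchanged genes, 4 were called. Promoters are RefSeq windows of GRCm38.p6; defensin transcripts were aligned with Biopython 1.88. Some counted genes are not reported here by name.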

Additional observations from a re-analysis of the deposited data

Results flagged for a closer look

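A library far from the other 3 of its group was looked for in 252 groups of 4 values, and 18 (7.14%) had one. A group with counts in only 1 library has one by construction, as for Hoxd4 in the proximal part and Hoxa10, Trpv6 and Aqp8 in the middle part. The nominal rate of about 1 in 20 by chance does not hold for such groups, so the share is not set against it. In the proximal part, the highest library stood apart for Lgr5 (405 CPM, replicate 1), Hoxd4 (0.0143, replicate 2), Defa20 (58.0, replicate 4), Defa2 (70.1, replicate 4), the water channel Aqp8 (1.90, replicate 4) and Clca4a (55.5, replicate 3), and the lowest for Reg3g (51.3, replicate 1). In the middle part, the highest library stood apart in replicate 1 for Hoxa10 (0.0567 CPM), Slc40a1 (12.9), Cubn (72.0), Defa32 (121) and the gasdermin Gsdmc3 (28.8), in replicate 2 for Slc10a2 (1.34), in replicate 3 for Adh1 (53.9) and Aqp8 (0.0672), and in replicate 4 for Trpv6 (0.0378) and Atp5k (18.7). The lowest middle library stood apart for the mucin Muc13 (1241 CPM, replicate 3).

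The regional difference itself differed between GFP-high and GFP-negative cells, by the edgeR test of that difference, for Slc27a2 (1.57 on the log2 scale), Pimreg (3.36), the DNA sensor Aim2 (1.79, adjusted p = 0.0239), the adaptor Blnk (1.18), the ubiquitin ligase Rnf150 (1.91), Ffar4 (1.73) and the zinc finger protein Zbtb10 (2.5), all larger in GFP-high cells. It was smaller in GFP-high cells for the annexin Anxa4 (-0.64), which rose in both fractions, and for Map2 (-2.08). In GFP-high cells alone, Blnk was not called after any of the 8 single-library omissions (adjusted p up to 0.161 without proximal replicate 1), nor Rnf150 after 5 of them (up to 0.105 without middle replicate 2).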

How the results depend on the processing

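The number of genes called moved with the method. For the middle against the proximal part in GFP-high cells it was 464, against 999 by DESeq2, 3480 from the libraries compared alone (4561 with the replicate block as well), 275 with a fold of at least 2, 147 without proximal replicates 2 and 3, and 234 to 418 with each library left out. For GFP-negative cells it was 521, against 791 by DESeq2, 148 from the libraries compared alone, 292 with a fold of at least 2, and 383 to 669 with each library left out. For the difference between fractions it was 23, against 14 without a filter, 143 by DESeq2, 4 from the libraries compared alone, 10 without proximal replicates 2 and 3, and 9 to 76 with each library left out. The causes were not tested. The balance of directions turned as well: in GFP-high cells 62.5% of the calls were higher, against 46.6% from the libraries compared alone, and in GFP-negative cells 52.6%, against 43.4% by the newer quasi-likelihood method and 39.2% from the libraries compared alone. With the replicate number as a block the counts were 585, 624 and 38, and 460 of the 464 genes were called. Among the genes followed by name, no called one changed direction under any alternative run, whereas the uncalled Npy1r, Fabp6 and Ptprc changed sign with single libraries left out and the uncalled Cybrd1 without proximal replicates 2 and 3. Of the 105 called, 58 kept their call whichever library was left out, 47 lost it at least once, and Osr2, Sdhd and Blnk lost it every time. The newer quasi-likelihood method did not call Aqp8, Cela2a, Fgf15, Prss2, Pyy and Smad6 and did call Fabp1, Gata4 and Onecut2 (adjusted p = 0.0268, 0.0491 and 1.24e-04), and dropping the filter lost Aldh2, Atp5g3, Bdh1, Ptgs1, Sdhd and Smad6. The block lost Guca2b and gained Onecut2 and Fabp1, and changed no other call among them. In counts simulated with the trend of the spread over all libraries, 24% of 75 genes changed 1.5-fold were recovered. In such counts the main fit missed many differences of that size. Genes whose spread lies off the trend were not covered.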

Other observations

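The next 4 genes were chosen after their values were seen. Dmbt1, a scavenger glycoprotein that binds bacteria, was at 3409, 4446, 5112 and 5148 CPM in proximal replicates 1 to 4 and at 2307, 2626, 1522 and 2045 CPM in middle replicates 1 to 4 (log2 difference -1.09 ± 0.24 SE, adjusted p = 0.00497), lower in each middle library than in any proximal one. The membrane mucin Muc13 was at 786, 938, 974 and 1043 and 1632, 1626, 1241 and 1668 CPM (log2 difference 0.72 ± 0.17 SE, adjusted p = 0.00861; adjusted p = 0.066 without proximal replicate 1). Muc3, another membrane mucin, was 2.62-fold higher in the middle part (1.39 ± 0.35 SE, adjusted p = 0.0203) and Ceacam1, an adhesion molecule, 1.71-fold higher (0.77 ± 0.21 SE, adjusted p = 0.0307). Both were sensitive to single libraries: 5 and 6 of the 8 omissions ended the calls, with adjusted p up to 0.0946 without proximal replicate 1 and 0.122 without middle replicate 2.

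The mitochondrial genes Atp5g3, a subunit of the ATP synthase ring, and Aldh2, an aldehyde dehydrogenase, were 2.36-fold and 2.05-fold lower (-1.24 ± 0.35 SE, adjusted p = 0.04301 and -1.04 ± 0.28 SE, adjusted p = 0.0389). For both genes middle replicate 4 was the highest of its group, and 7 and 7 of the 8 omissions ended the calls (adjusted p up to 0.153 without middle replicate 2 and 0.1597 without middle replicate 1).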
